A study of Mus musculus with 3 samples.

Results

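The genes described here make, store, move and sense cholesterol: 32 genes of a named list, taken by symbol from the 55536 gene entries of each deposited table. They were 17 enzymes of the synthesis route, 5 genes of the sterol-sensing control of that route, 6 genes of the liver X receptors (LXR), receptor turnover and export, and 4 genes of storage, transfer and oxysterol synthesis. All 32 were found. The set is called cholesterol synthesis, uptake and export, but it holds no lipoprotein receptor: the only member that bears on uptake is Mylip, a ubiquitin ligase that marks lipoprotein receptors for degradation.

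Polyadenylated RNA was sequenced from whole-cell extracts of bone-marrow-derived macrophages (strain C57BL/6J, primary cells), as 3 libraries, 1 for each biological replicate. All 3 had the same treatment, 100 ng/mL for 480 min, and no genetic change is given in the labels. The agent is given in 2 ways: as lipid A, the membrane anchor of bacterial endotoxin, in the description, and as lipoprotein A in the treatment field. No untreated library was analysed here, so a level cannot be read as a response to the agent, and the only differences that can be described are those between genes and between the 3 libraries. The labels give separate cell samples for the replicates but a single donor entry, and age and sex were not collected.

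Cholesterol is built from acetyl-CoA through mevalonate and squalene. When sterol in the endoplasmic reticulum is low, Scap carries the membrane-bound SREBP factors to the Golgi, where they are cut and become active transcription factors for the synthesis enzymes, and Insig proteins hold Scap back when sterol is high. Oxysterols and synthesis intermediates activate LXR, which drives export genes such as Abca1 and Abcg1. Macrophages take up large amounts of cholesterol with dying cells and lipoproteins, store it as ester in droplets and pass it to lipoproteins outside the cell.

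Gene levels are given in TPM, a share of all transcripts scaled to the same total in every library, which are corrected for gene length and can be compared between genes. Total expected counts on gene entries were 26589042 in replicate 1, 34344922 in replicate 2 and 48356527 in replicate 3. All 8 macrophage markers examined were detected in every library (at least 1 TPM), with summed levels of 21240, 16750 and 18120 TPM. Most of that sum was Lyz2, at 15720, 10770 and 12260 TPM in replicates 1, 2 and 3. The medians of the 8 markers were 799, 830 and 875 TPM, so the sum does not stand for the whole list. T cell, B cell, fibroblast and erythroid markers were at or near 0. Of the 8 neutrophil markers 3 were detected in every library. The summed level of the list was 27.3 TPM in replicate 1, 416 TPM in replicate 2 and 23.9 TPM in replicate 3, so replicate 2 stood apart. Most of that sum in replicate 2 came from S100a9 at 237 TPM, S100a8 at 128 TPM and Ngp at 43.3 TPM. Mmp8 was at 7.02 TPM there, and Elane, Mpo, Retnlg and Cxcr2 were each below 1 TPM.

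Promoter sequences are shown first because those of the synthesis enzymes held a short sequence, the CCAAT box, more often than promoters in general. Promoter windows from RefSeq, 250 bases before to 50 after a start, were on hand for 27 of the 32 members (38 windows, assembly GRCm38.p6). CCAAT, the box bound by the factor NF-Y, was searched on both strands, so that it also reads as ATTGG. It was found in 14 of 17 windows of the synthesis enzymes (82.4%), and each of their 14 genes with a window had at least 1 window with it. In Cyp51, Dhcr7, Idi1 and Msmo1, however, every box lay past an annotated transcript start. Windows were counted whole in every set compared. Among all 32851 windows of the table the share was 37.4%, among the 9695 windows of detected genes 37.5%, and among the 21 windows of the other members 38.1%. GGGCGG, the GC box of Sp1, was found in 82.4% of the synthesis windows, 62.8% of those of detected genes and 35.7% of all windows. TCACNCCAC, a form of the sterol regulatory element to which SREBP binds, was found in 1 member window, that of Hmgcs1, against 1.24% of all windows. The promoters of 3 synthesis enzymes with several CCAAT boxes, and those of the exporter Abca1 and the oxysterol enzyme Ch25h, which have none, are given 5′ to 3′ on the gene's strand, cut to the bases before the first annotated start. Capitals mark the CCAAT boxes of either strand and, in Hmgcs1, the sterol element.
Hmgcs1, chr13:119690101-119690350, plus strand: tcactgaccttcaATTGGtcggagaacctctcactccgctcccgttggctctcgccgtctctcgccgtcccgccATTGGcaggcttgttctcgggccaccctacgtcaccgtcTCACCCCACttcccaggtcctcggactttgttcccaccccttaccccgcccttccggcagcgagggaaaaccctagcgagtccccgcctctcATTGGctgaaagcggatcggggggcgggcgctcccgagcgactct
Mvd, chr8:122443423-122443672, minus strand: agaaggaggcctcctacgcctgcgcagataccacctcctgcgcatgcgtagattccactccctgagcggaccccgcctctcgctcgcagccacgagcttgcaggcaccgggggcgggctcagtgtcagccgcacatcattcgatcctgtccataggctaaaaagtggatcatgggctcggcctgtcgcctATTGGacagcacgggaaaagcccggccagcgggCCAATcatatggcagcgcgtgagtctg
Hsd17b7, chr1:169969242-169969455, minus strand: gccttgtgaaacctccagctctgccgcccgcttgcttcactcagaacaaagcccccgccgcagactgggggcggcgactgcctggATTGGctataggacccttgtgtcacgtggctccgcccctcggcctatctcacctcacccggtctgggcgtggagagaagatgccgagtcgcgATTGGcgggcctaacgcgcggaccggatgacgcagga
Abca1, chr4:53159896-53160145, minus strand: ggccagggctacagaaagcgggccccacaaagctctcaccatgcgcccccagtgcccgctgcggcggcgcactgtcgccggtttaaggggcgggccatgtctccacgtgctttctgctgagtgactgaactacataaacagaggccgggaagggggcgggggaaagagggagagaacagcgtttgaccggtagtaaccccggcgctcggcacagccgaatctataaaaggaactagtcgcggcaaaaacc
Ch25h, chr19:34475165-34475398, minus strand: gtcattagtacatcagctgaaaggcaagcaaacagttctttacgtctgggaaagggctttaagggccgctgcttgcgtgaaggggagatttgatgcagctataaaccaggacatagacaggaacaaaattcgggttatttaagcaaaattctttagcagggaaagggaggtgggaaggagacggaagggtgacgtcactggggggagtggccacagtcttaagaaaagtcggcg
In the printed Hmgcs1 sequence the boxes began 237, 176 and 45 bases before the start and the sterol element 137 bases before it. In Mvd they lay 60 and 27 bases before the start. A match of letters is a description and not evidence of binding, which was not measured. The box and the library pattern given further on, replicate 2 lowest by scaled counts, did not match in every gene. Most members with the box had that pattern, and Ebp, Mvk, Mylip, Insig2 and Soat1 had the box without it. A gene was counted as having the box if any of its windows held it. For some genes, among them Pmvk, Srebf1, Insig2 and Soat1, no window with the box held the start of the most abundant transcript. Of the members with a window but no box, Ch25h had the pattern and Abca1, Apoe, Nr1h2, Nr1h3 and Scap did not. Whether the box and the pattern are linked was not tested.

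All 32 genes were detected in every library, where 17.9% of all gene entries were. Their median level was 23.4 TPM, against 14.0 TPM for all 9930 detected genes. The levels ran from Apoe at 8735 ± 1212 TPM (SD, n = 3) down to Dhcr7 at 4.24 ± 0.53 TPM. After Apoe came Abcg1, Nr1h3, Soat1, Msmo1, Nceh1 and Hmgcs1, between 152 and 68.6 TPM. Of the 31 neighbours in the order of levels only 2 were apart, meaning the same order in 3 of 3 libraries with a mean log2 ratio above 2 SD: Apoe over Abcg1 and Abca1 over Ebp. The other 29 neighbouring steps were not resolved with these libraries.

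**Figure D1:**
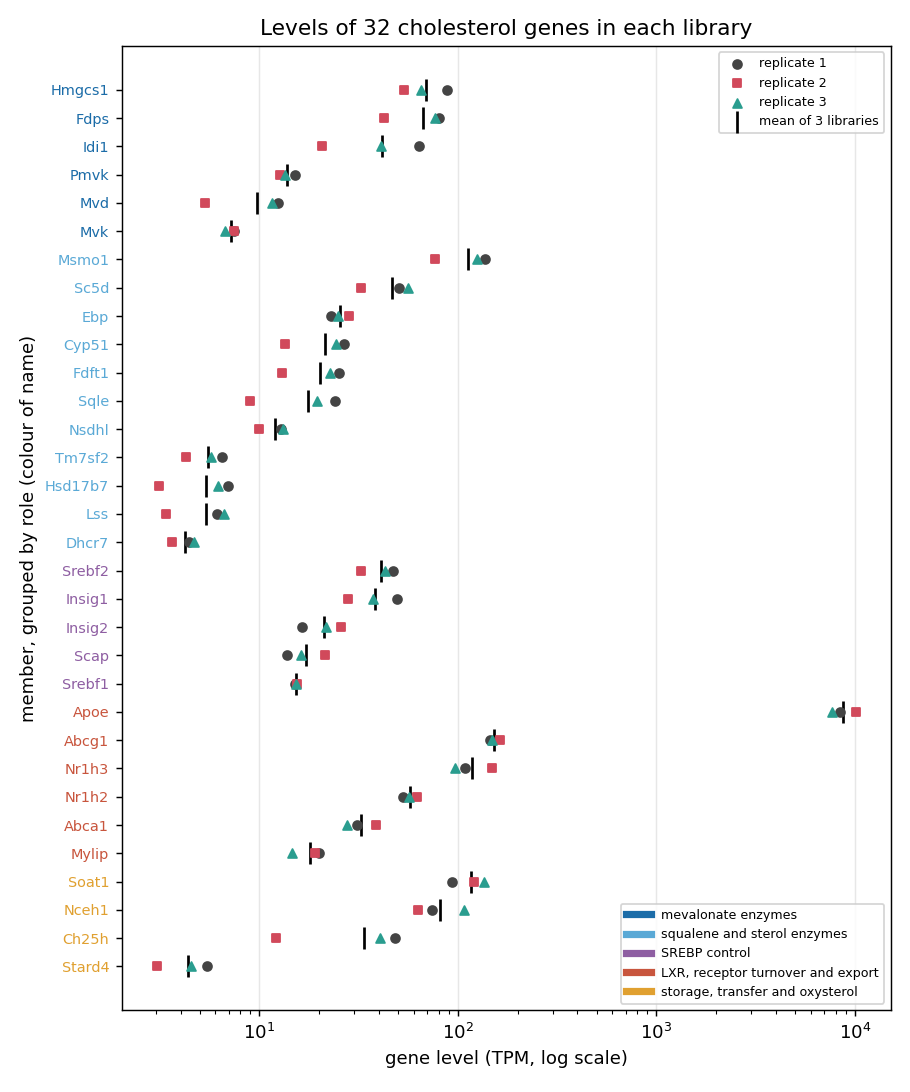
Level of each of the 32 genes in TPM (x axis, logarithmic) in replicates 1, 2 and 3 (symbols) with the mean of the 3 libraries (vertical bar), by role (colour of the name). Apoe lies at 8735 TPM, far above Abcg1 at 152 TPM, and for most synthesis enzymes the replicate 2 symbol is the leftmost.

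The mevalonate enzymes carry the first steps, from acetyl-CoA units to farnesyl diphosphate. Their summed level was 266 TPM in replicate 1, 142 TPM in replicate 2 and 214.5 TPM in replicate 3. Hmgcs1, the cytosolic synthase that joins acetyl-CoA to acetoacetyl-CoA, was at 87.6, 53.3 and 65.0 TPM in replicates 1, 2 and 3. Fdps, which makes farnesyl diphosphate, was at 79.9, 42.5 and 76.9 TPM. Both were lowest in replicate 2, and replicates 1 and 3 lay near each other for Fdps. Idi1, the isomerase of isopentenyl diphosphate, was at 63.5, 20.6 and 40.8 TPM, the widest range of these 6 genes. Mvd, the decarboxylase that forms isopentenyl diphosphate, was at 12.4, 5.34 and 11.6 TPM. Both again had their low value in replicate 2. The 2 kinases were steadier: Pmvk was at 15.0, 12.7 and 13.5 TPM, and Mvk at 7.41, 7.46 and 6.70 TPM. Mvk was the only mevalonate enzyme not lowest in replicate 2.

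From squalene onward the 11 sterol enzymes summed to 323, 197 and 309 TPM. Msmo1, an oxidase that removes methyl groups from the sterol ring, had the highest mean level of all 17 enzymes, at 137, 76.6 and 124.5 TPM. Sc5d, a sterol desaturase, was next among the 11 sterol enzymes, at 50.7, 32.6 and 56.1 TPM. The early steps lay lower. Fdft1, squalene synthase, was at 25.2, 12.9 and 22.7 TPM. Sqle, squalene epoxidase and a rate-limiting step of the route, was at 24.1, 8.94 and 19.5 TPM. Lss, which closes the ring to lanosterol, was at 6.11, 3.37 and 6.66 TPM. For each of these 5 genes replicate 2 was the low library and the other 2 lay above it. The lanosterol demethylase Cyp51 was at 26.6, 13.5 and 24.4 TPM. Nsdhl, a dehydrogenase of the demethylation complex, was at 12.9, 9.96 and 13.2 TPM. Its partner in that complex, the ketoreductase Hsd17b7, was at 6.92, 3.12 and 6.15 TPM. All 3 were lowest in replicate 2, Nsdhl by the smallest step. The reductase Tm7sf2 was at 6.48, 4.28 and 5.72 TPM. Dhcr7, the reductase of a last step, was at 4.41, 3.64 and 4.66 TPM. The isomerase Ebp was the exception, at 22.9, 28.3 and 24.9 TPM, with replicate 2 on top.

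To set the libraries side by side for 1 gene, expected counts were scaled to each library's size by the TMM method, and the spread of a gene is the highest library over the lowest on that scale. By scaled counts 15 of the 17 enzymes were lowest in replicate 2, and 21 of all 32 members were, where 38.6% of the 12414 genes averaging 10 counts or more were. Replicate 1 was the lowest library for 5 members (35.9% of all genes) and replicate 3 for 6 (25.5%). The highest library was replicate 1 for 20 members (35.4% of all genes), replicate 2 for 6 (39.1%) and replicate 3 for 6 (25.4%). Of the 15 enzymes lowest in replicate 2, 12 were highest in replicate 1, and Lss, Sc5d and Dhcr7 were highest in replicate 3. The median of replicate 2 over the other libraries was -0.87 (log2) for the 17 enzymes and -0.01 for all genes.

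**Figure D2:**
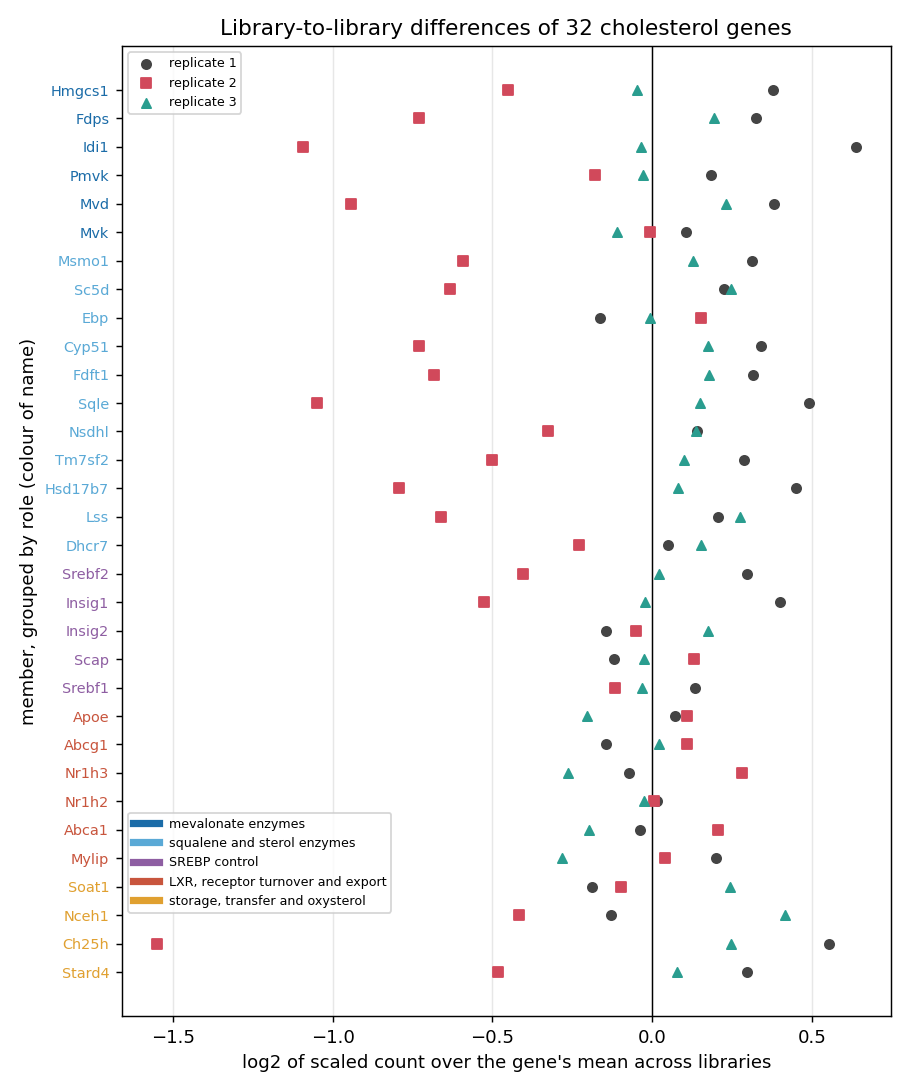
Scaled count of each member in replicates 1, 2 and 3 (symbols) as the log2 of its ratio to the gene's mean over the libraries (x axis), by role (colour of the name). The replicate 2 squares lie left of 0 for nearly all synthesis enzymes and reach -1.55 for Ch25h, and they lie at or right of 0 for the LXR and export genes.

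The difference between libraries was larger than counting error for most members. A chi-square test of the 3 counts against equal scaled levels, Benjamini-Hochberg adjusted over all genes, passed 0.05 for 30 of 32 members, where 70.9% of all 12414 genes passed, so the test alone does little to set the members apart. Mvk (adjusted p = 0.358) and Nr1h2 (adjusted p = 0.68) did not pass. The sizes were as follows. The spread was at least 1.5-fold for 17 of the 32 members, against 37.9% of all genes. All members averaged 129.7 counts or more, and among the 9075 genes averaging 100 counts or more the share was 25.8%. In each of the 17 the low library was replicate 2, where 11.8% of those 9075 genes were both lowest in replicate 2 and spread at least 1.5-fold. The median spread was 1.67-fold over the members and 1.30-fold over those 9075 genes. Of the 17, 12 were synthesis enzymes, and the spread reached 3.32-fold for Idi1, 2.91-fold for Sqle, 2.50-fold for Mvd and 2.37-fold for Hsd17b7. Without replicate 2, 1 member was spread at least 1.5-fold, where 15.4% of all genes were. It was Idi1, at 1.59-fold with replicate 1 on top, so the counts of members above rest on replicate 2. Replicate 2 was also the library with 416 TPM of neutrophil markers, mostly S100a8, S100a9 and Ngp, and their part in the result was not tested. In bulk RNA, fewer cells of a type and less RNA per cell cannot be told apart.

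The 5 SREBP control genes did not share 1 pattern. Srebf2, whose product drives the synthesis enzymes, was at 47.2, 32.6 and 43.0 TPM in replicates 1, 2 and 3, with a spread of 1.62-fold. Insig1, the sterol-dependent anchor of Scap and itself a target of SREBP, was at 49.4, 27.8 and 37.3 TPM, a spread of 1.90-fold. Both had their low value in replicate 2, as the enzymes did. Srebf1, whose product drives mostly fatty acid genes, was at 15.1, 15.5 and 15.3 TPM. By scaled counts it was lowest in replicate 2 and highest in replicate 1, as Srebf2 and Insig1 were, with a spread of 1.19-fold. Scap was at 13.8, 21.3 and 16.3 TPM and Insig2, the second anchor protein, at 16.3, 25.7 and 21.6 TPM. In TPM both were highest in replicate 2. By scaled counts Scap was highest there too, with a spread of 1.19-fold, but Insig2 was highest in replicate 3 and lowest in replicate 1, with a spread of 1.25-fold.

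In the 6 members of LXR, receptor turnover and export the libraries lay in another order. Nr1h3, which encodes LXR alpha, was at 109, 149 and 96.9 TPM. Nr1h2, which encodes LXR beta, was at 53.0, 61.9 and 56.4 TPM. Abca1, the transporter that hands cholesterol to lipid-poor apolipoproteins, was at 30.9, 38.5 and 27.8 TPM. These 3 genes were highest in replicate 2 in TPM, but by scaled counts the libraries of Nr1h2 were within 1.03-fold of each other. Abcg1, which exports cholesterol to mature lipoproteins, was at 144.5, 163 and 149 TPM. Apoe, the apolipoprotein that macrophages secrete, was at 8440, 10070 and 7697 TPM. Mylip, an LXR target, was at 20.0, 19.0 and 14.6 TPM. By scaled counts none of the 6 was spread 1.5-fold or more, none was lowest in replicate 2, and Abca1, Abcg1, Apoe and Nr1h3 were highest there. Replicate 3 was the lowest library for all of them except Abcg1. The largest spread among them was 1.46-fold, for Nr1h3.

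Storage and oxysterol genes held the largest spread of all members. Ch25h (chromosome 19, 34473778 to 34475164, minus strand, assembly mm10) encodes cholesterol 25-hydroxylase, which makes an oxysterol that blocks SREBP processing and which is known as an interferon-induced gene. Its level was 48.0 TPM in replicate 1, 12.1 TPM in replicate 2 and 40.3 TPM in replicate 3, with expected counts of 940, 313 and 1422 and a spread of 4.31-fold. Replicate 2 stood well below the other libraries. Soat1, the enzyme that esterifies cholesterol for storage, was at 93.7, 120 and 136 TPM. Nceh1, a hydrolase of cholesterol esters, was at 73.7, 62.8 and 107 TPM, with replicate 3 on top. Stard4, which carries sterol between membranes and is an SREBP target, was at 5.47, 3.04 and 4.54 TPM. Ch25h, Nceh1 and Stard4 were spread at least 1.5-fold with replicate 2 lowest, and Soat1 was lowest in replicate 1.

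Ratios of 2 genes within a library need no scaling between libraries. They were taken for 9 pairs with like or opposed roles, and 6 were apart by the same rule as for the order of levels. Fdps over Fdft1, consecutive enzymes at the branch to squalene, gave the steadiest ratio: 1.67, 1.72 and 1.76 (log2), mean 1.71 ± 0.05 (SD, n = 3), although both genes had their low value in replicate 2. Cyp51 over Lss was 2.00 ± 0.13 and Hmgcs1 over Mvd 2.88 ± 0.42. Srebf2 lay above Srebf1 by 1.40 ± 0.29, Nr1h3 above Nr1h2 by 1.03 ± 0.24, and Abca1 lay below Abcg1, at -2.24 ± 0.17. The other 3 pairs were not apart. Insig1 over Insig2 was 1.60, 0.12 and 0.79 in replicates 1, 2 and 3. In TPM the anchors were thus close to even in replicate 2 and not in the other libraries. Insig2 was highest in replicate 2 in TPM but not by scaled counts (18.9, 20.1 and 23.5). The mean of this ratio was 0.83 ± 0.74, and 0.77 ± 0.57 in a second deposited quantification. The part that the assignment of reads to Insig2 transcripts had in it was not tested. Nceh1 over Soat1 was -0.54 ± 0.34, so the ester hydrolase had the lower value in every library. Sqle over Fdft1 was -0.27 ± 0.24, with its lowest value, -0.53, in replicate 2.

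**Figure D3:**
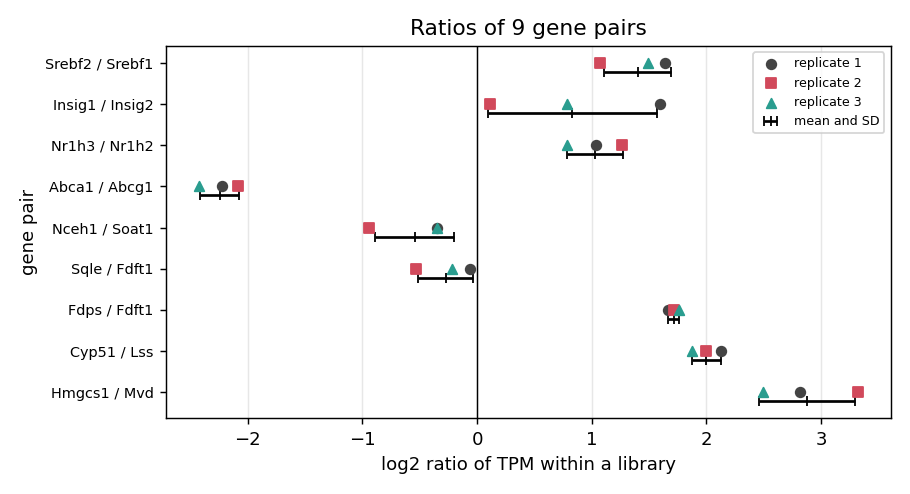
Log2 ratio of TPM within a library (x axis) for 9 gene pairs in replicates 1, 2 and 3 (symbols), with the mean and SD below them (bar). Fdps over Fdft1 stays within 1.67 to 1.76, and Insig1 over Insig2 runs from 0.12 in replicate 2 to 1.60 in replicate 1.

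Transcript shares were read from 2 quantifications of the same libraries, 1 from a transcriptome alignment and 1 without an alignment file. Of the members, 30 had several transcripts with signal, and for 30 of 30 both quantifications put the same transcript first, where 89.5% of detected genes with several transcripts did. The share itself moved by more than 1 SD for most of these 30 members. Examples are Abcg1-201, from 92.2% to 69.2%, and Stard4-201, from 86.0% to 67.0%. In the alignment-based tables the leading transcript held over 90% of the gene's TPM for 12 members. Ch25h and Nsdhl had 1 transcript at 100%. The most divided gene was Nr1h2, whose leader Nr1h2-201 held 37.7% ± 1.9 (SD, n = 3). For Apoe the leader was Apoe-202, annotated as a processed transcript and not as protein-coding, at 63.2% ± 6.4, and the protein-coding Apoe-209 followed at 26.3% ± 8.6. Apoe-202 held 55.9%, 67.6% and 66.2% in replicates 1, 2 and 3. It led in the second quantification too, at 61.4%. The share of Insig2-201 was 66.0%, 45.5% and 63.5%, and that of Insig2-212 was 0%, 42.4% and 23.7%, so the transcripts of Insig2 were assigned differently in each library. Srebf1-201 held 64.1% ± 4.7, and Srebf1-207, which starts 10139 bases further into the gene, held 11.5% ± 4.4. For Srebf2 an annotated transcript with a retained intron held 23.8% ± 3.5.

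**Figure D4:**
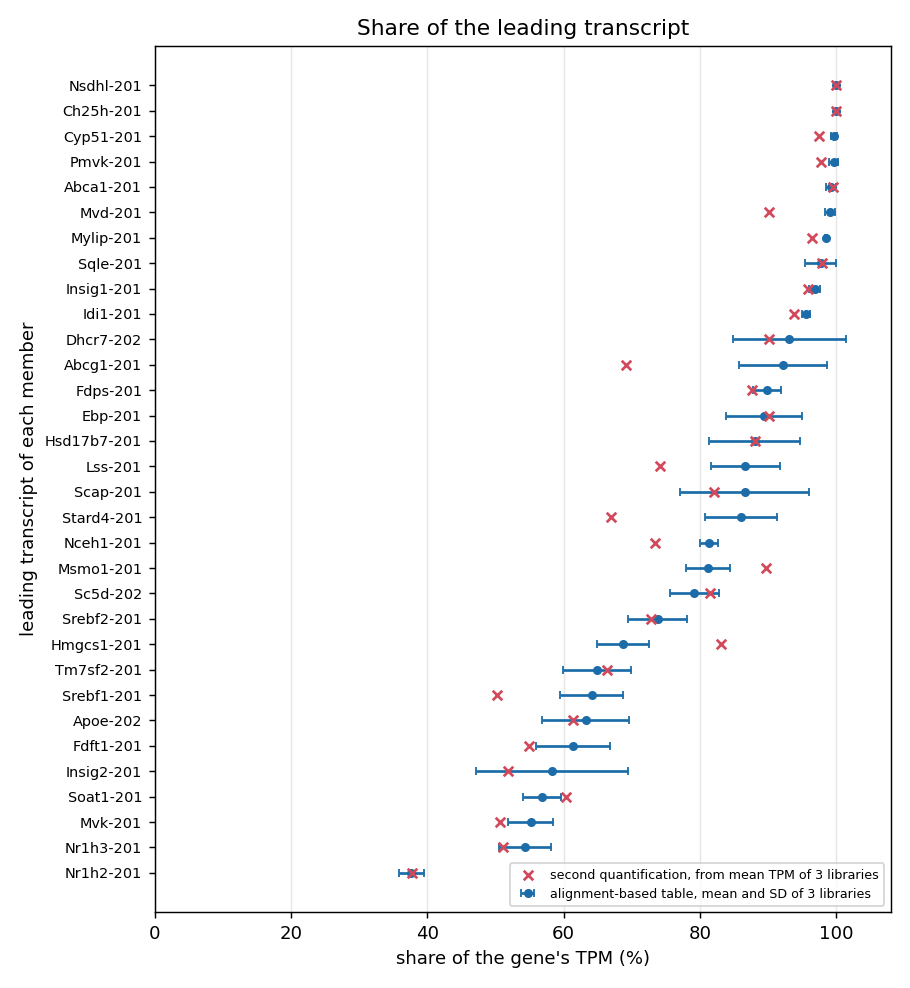
Share of the gene's TPM on the leading transcript of each member (x axis, percent), from the alignment-based tables (points with SD over 3 libraries) and from the second quantification (crosses). Shares run from 100% for Nsdhl and Ch25h to 37.7% for Nr1h2-201, and the widest SD is that of Insig2-201, 11.2 percentage points.

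Some members overlap a neighbour. Exons of 11 members overlap those of another gene, and whether counting used the strand is not given in the sources used here. Fdft1 shares 774 exon bases with Ctsb on the opposite strand, a cathepsin at 10001, 9245 and 8799 TPM, so its level of 20.3 ± 6.5 TPM is uncertain. Tm7sf2 shares 532 exon bases with Vps51 on the same strand, at 32.8, 35.3 and 34.2 TPM. Ctsb and Vps51 lacked the low value of Fdft1 and Tm7sf2 in replicate 2. Gm26902, which shares 159 exon bases with Ch25h on the opposite strand, was at 1.09, 0.34 and 1.07 TPM, low in replicate 2 as Ch25h was. The part of the overlaps in the library pattern was not tested. For Nr1h2 the annotation lists a processed pseudogene, Nr1h2-ps.

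Genes that feed, branch from or surround the route were taken as 8 further lists of 52 genes. Of these 44 were detected in every library, and 43 of 47 with enough counts passed the counting test (70.9% of all genes). Of the 47, 19 were spread at least 1.5-fold (37.9% of all genes) and 23 were lowest in replicate 2 (38.6% of all genes). Acat2, the thiolase that makes the acetoacetyl-CoA used by Hmgcs1, was at 15.6, 5.55 and 11.7 TPM in replicates 1, 2 and 3, a spread of 2.99-fold with replicate 2 lowest, as for most members. Acly, which makes acetyl-CoA from citrate, was at 47.1, 61.4 and 50.8 TPM and lacked that low value, and Acss2 was the lowest of that list, at 2.88 ± 0.39 TPM. Among the isoprenoid branches Fnta and Nus1 were highest, at 26.9 and 25.9 TPM, and Fntb lowest at 1.59 TPM. Among the other genes of SREBP processing and sterol-regulated turnover, Rnf145, a ubiquitin ligase, was at 46.9 ± 5.0 TPM. Mbtps1, a protease that cuts SREBP, was at 6.56, 8.94 and 8.90 TPM, and neither gene was spread 1.5-fold.

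Lysosomal release was led by Npc2, a sterol carrier, at 1028 ± 27 TPM, while Lipa, the acid lipase that frees cholesterol from its ester, was at 142, 296 and 216 TPM and Npc1 at 77.0 ± 6.6 TPM. Of the receptors Msr1 was at 578 ± 6 TPM. Cd36, a scavenger receptor for oxidized lipoprotein, was at 46.6, 390 and 111 TPM in replicates 1, 2 and 3. Lpl, the secreted lipase, was at 129, 543 and 230 TPM. Lipa, Cd36 and Lpl were thus highest in replicate 2, the library where most synthesis enzymes were lowest. Their lists did not share that order. By scaled counts replicate 2 was highest for 1 of 4 lysosomal genes and 3 of 7 receptors with enough counts (39.1% of all genes). Of the 8 other LXR targets and lipoprotein factors with enough counts, 1 was highest there and 6 were lowest (38.6% of all genes). Of these 6, 4 were spread at least 1.5-fold, where 11.8% of genes averaging 100 counts or more had both. Vldlr was near 0, at 0.07 TPM. Pltp, a phospholipid transfer protein and LXR target, was at 627 ± 6 TPM, and Scd1, the fatty acid desaturase, at 1.64, 0.58 and 1.91 TPM. Of the sterol transfer genes Gramd1a was at 112 ± 43 TPM, Osbpl9 at 51.4, 42.3 and 53.4 TPM and Gramd1c at 0.07 TPM. Of the oxysterol genes Hsd3b7 was at 16.8 ± 0.8 TPM and Cyp27a1 at 13.9 ± 1.4 TPM, whereas Cyp7b1, which breaks down the product of Ch25h, had 1 count in replicate 3 and 0 in the others.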

How the data were processed

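Expected counts, TPM and FPKM per gene and percent shares per transcript were deposited by the authors, per the file headers. They were made from a transcriptome alignment on mm10 with GENCODE M21, per the deposited readme. Estimated counts and TPM of a second deposited quantification, made from the reads directly, were summed here per gene. The sources used here name no program, version or strand setting.

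Entries without a gene identifier, 0.0682% to 0.127% of counts, were left out. Expected counts were rounded and scaled with edgeR 4.0.16 (TMM, R 4.3.3). For each of 12414 genes averaging 10 counts or more, the libraries were compared by a chi-square test (2 degrees of freedom), with Benjamini-Hochberg adjustment over all of them and a threshold of 0.05. The test measures only the spread between these libraries, which can be technical. It was run on counts simulated at the real depths with counting error only, so without variation between replicates. There it called 97.4% of genes changed 1.5-fold and averaging at least 100 counts. Over all genes simulated it called 78% of those changed 1.5-fold and 0.0737% of unchanged genes. The last share follows from that setting and does not measure false calls among real replicates. With 1 group no comparison between conditions was made, and an exact sign-flip test over 3 libraries cannot go below 0.25. Means and SDs are over 3 libraries. Members, role groups, pairs and lists were chosen with earlier results of these data known, and the text names all members, both genes of each pair, and of each further list the 2 genes with the highest and the 1 with the lowest mean TPM. A gene that meets this rule is not reported here. Acat2, the neighbours Ctsb, Vps51 and Gm26902, the neutrophil markers and the pseudogene were named for the results beside them. Promoters came from the RefSeq table of GRCm38.p6, and a planned comparison of protein sequences was not made. Alternatives were other scalings, count minimums, the FPKM values, the second quantification and leaving out each library.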

Additional observations from a re-analysis of the deposited data

How the results depend on the processing

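All 32 genes were detected without any 1 library, in the second quantification and at 0.5 TPM, and 27 at 5 TPM. The median level moved from 23.4 TPM to 19.5 TPM in the second quantification and to 15.6 in FPKM. In FPKM the group medians were 14.2 for SREBP control, 58.6 for LXR, receptor turnover and export, and 38.0 for storage, transfer and oxysterol. FPKM lacks the rescaling to a fixed total, so its values are not on the scale of TPM. Here the medians were lower in FPKM for every group. Of the 17 members spread at least 1.5-fold, 7 reached 2-fold. That is 7 of all 32 members, where 16.5% of all genes reached 2-fold. At 1.5-fold, leaving out 1 library at a time gave 1 without replicate 2 (15.4% of all genes) to 16 without replicate 3 (29% of all genes). The other settings gave 17 to 19 (25.8% to 42.9% of the genes tested), the highest in TPM. The count passing the counting test ran from 21 to 28 when 1 library was left out (21 without replicate 2, 41.9% of all genes). Under the other settings it ran from 28 to 31, where 53.7% to 78.2% of the genes tested passed. Members highest in replicate 2 were 10 in TPM (45.2% of all genes) against 6 by scaled counts (39.1% of all genes), and the cause was not tested. Between those scales the highest library differed for 5 members (Mvk, Nsdhl, Srebf1, Insig2 and Nr1h2) and the lowest for 2 (Srebf1 and Nr1h2). The 15 synthesis enzymes lowest in replicate 2 stayed 15 in number with DESeq2 size factors, in TPM and in the second quantification, all chosen after seeing the data, as was the count minimum of 100. Without replicate 2, Insig1 over Insig2 (1.19) and Nceh1 over Soat1 (-0.35) met the rule for pairs. No pair ratio changed sign under the alternatives run. No paired analysis was possible because there is 1 group. A test against untreated cells was not possible, and 3 libraries leave most neighbouring levels unresolved.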
